A study of Mus musculus with 8 samples.

Results

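The mouse testis transcriptome was examined for 37 genes of antioxidant defence and thiol redox control: glutathione peroxidases, peroxiredoxins, thioredoxins and their reductases, superoxide dismutases, catalase, glutathione enzymes and the NRF2 pathway, with the thioredoxins of sperm. The members were taken by gene symbol from a table of 57690 rows, in which each symbol stood once, and all 37 passed the filter of a mean of at least 1 TPM that left 20343 genes for testing. Male C57BL/6 mice aged 8 weeks were injected intraperitoneally 2 times with 200 µg, either of anti-PD-L1, which blocks a checkpoint ligand of T cells, or of an isotype-matched antibody (IgG2b), and testes were collected 7 days after that. Each group held 4 libraries of bulk RNA, called anti-PD-L1 and IgG replicates 1 to 4, and no allele or transgene is named for either group. Nothing in the labels ties each library to an animal of its own; if libraries shared animals, the spread behind the p-values would be technical.

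Cells remove peroxides through a pair of thiol systems. Glutathione, made by GCL and glutathione synthetase, is used by glutathione peroxidases and transferases and is restored by glutathione reductase; peroxiredoxins are used up in turn and restored by thioredoxin, which thioredoxin reductases recharge with NADPH. Superoxide dismutases turn superoxide into hydrogen peroxide, and the transcription factor NRF2, held back by KEAP1, drives many of these genes under oxidative or electrophilic stress through antioxidant response elements. In the testis several of these proteins also build the sperm: GPX4 is a structural protein of the sperm midpiece, and sperm thioredoxins are made in spermatids.

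The element through which NRF2 acts has the core TGACNNNGC, and the windows that hold it are shown so that the differences of these members can be read beside them. RefSeq promoters (build GRCm38.p6, from 250 bases before to 50 after a gene start, 300 in all) were given for 31 of the 37 members. There were 40 such promoters, so some of the members had more than 1. The core, searched on both strands, stood in a promoter of 8 of these 31 genes (25.8%), and in that of 13.99% of all 27025 genes of the table. Each window is printed 5′ to 3′ on the strand that carries the core, with the core in capitals.
Prdx1: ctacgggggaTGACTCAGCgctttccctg
Srxn1: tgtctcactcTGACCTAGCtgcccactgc
Gclm: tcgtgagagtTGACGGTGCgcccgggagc
Txnrd1: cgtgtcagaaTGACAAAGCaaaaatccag
Nfe2l2: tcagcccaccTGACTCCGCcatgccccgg
Sod1: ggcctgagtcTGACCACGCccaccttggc
Gstm5: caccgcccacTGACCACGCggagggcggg
Txndc2: ctttgaacctTGACCTAGCctagctgtgt

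These windows lie at chr4:116685456-116685484 (minus strand) for Prdx1, chr2:152105542-152105570 (minus) for Srxn1, chr3:122245413-122245441 (minus) for Gclm and chr10:82859104-82859132 (minus) for Txnrd1. Those of Nfe2l2, Sod1, Gstm5 and Txndc2 lie at chr2:75704885-75704913 (minus), chr16:90220696-90220724 (minus), chr3:107895802-107895830 (plus) and chr17:65639941-65639969 (minus). The windows of Txnrd1 and Txndc2 lie before internal starts, inside the annotated spans of their genes. The cAMP response element TGACGTCA, a palindrome that CREM-type factors of spermatids bind, was in the promoter window of 0 of the 31 members and of 2.03% of all genes. A match is a description of these letters and not a bound site, and no match says only that the letters are not in this window.

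Values are in TPM, transcripts per 1000000, which corrects for the length of a gene and sets every library to the same total. Levels may therefore be compared between genes as far as the length assigned to each gene holds, while read depth is unknown. Differences are anti-PD-L1 minus IgG in log2(TPM + 1); the added 1 makes them too small for genes near 1 TPM. The tissue carried its defining transcripts: the summed TPM of 8 elongating spermatid markers was 53864 to 61585 in anti-PD-L1 libraries and 56688 to 71635 in IgG libraries, and the sum of 7 epididymis markers did not exceed 0.34 TPM. Anti-PD-L1 replicate 1 and IgG replicate 4 stood apart from the rest, with 31322 and 31572 genes above 0, against 29064 to 29904 in the other 6 libraries. Differences that move by over 1.5 times without both libraries are given with and without them for the members described in full.

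None of the 37 members passed the test over all genes. In limma with Benjamini-Hochberg adjustment over the 20343 tested genes, 0 of 37 members had an adjusted p under 0.05, where the background was 0% of genes, and the lowest adjusted p of a member was 0.835. At an unadjusted p under 0.05 the count was 0 members higher and 1 lower, Prdx4, while 5.23% of all tested genes were under that p, 3% higher and 2.22% lower. So 1 of 37 is close to the share of genes that were lower. The 4 anti-PD-L1 libraries lay wholly above the 4 IgG libraries for 0 members and wholly below for 1, again Prdx4, where 1.76% and 1.23% of tested genes did so. Of the members 17 had a difference above 0 and 20 below, with a median of -0.017 against 0.026 over all tested genes. Differences ran from -0.21 for Srxn1 to 0.19 for Gstm1, and 25 of the 37 were within 0.1 of 0. In bulk tissue fewer cells of a type and less RNA per cell cannot be told apart, and this holds for every value below.

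The 95% intervals give the range of differences that these libraries allow. Among genes averaging 10 TPM or more, the interval lay within a 1.5-fold change of TPM + 1 either way for 29 of 29 members and 90.7% of genes. Over all levels this held for 36 of 37 members, Gpx7 being outside with -0.65 to 0.32, and for 72.3% of tested genes. For members near 1 TPM the added 1 narrows the interval, so a change of TPM beyond 1.5-fold is not excluded there, Slc7a11 and Nqo1 among them. Over the 8 libraries the members with at least 10 TPM had a median coefficient of variation of 8.43%, and all genes at that level had one of 9.34%.

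**Figure D1:**
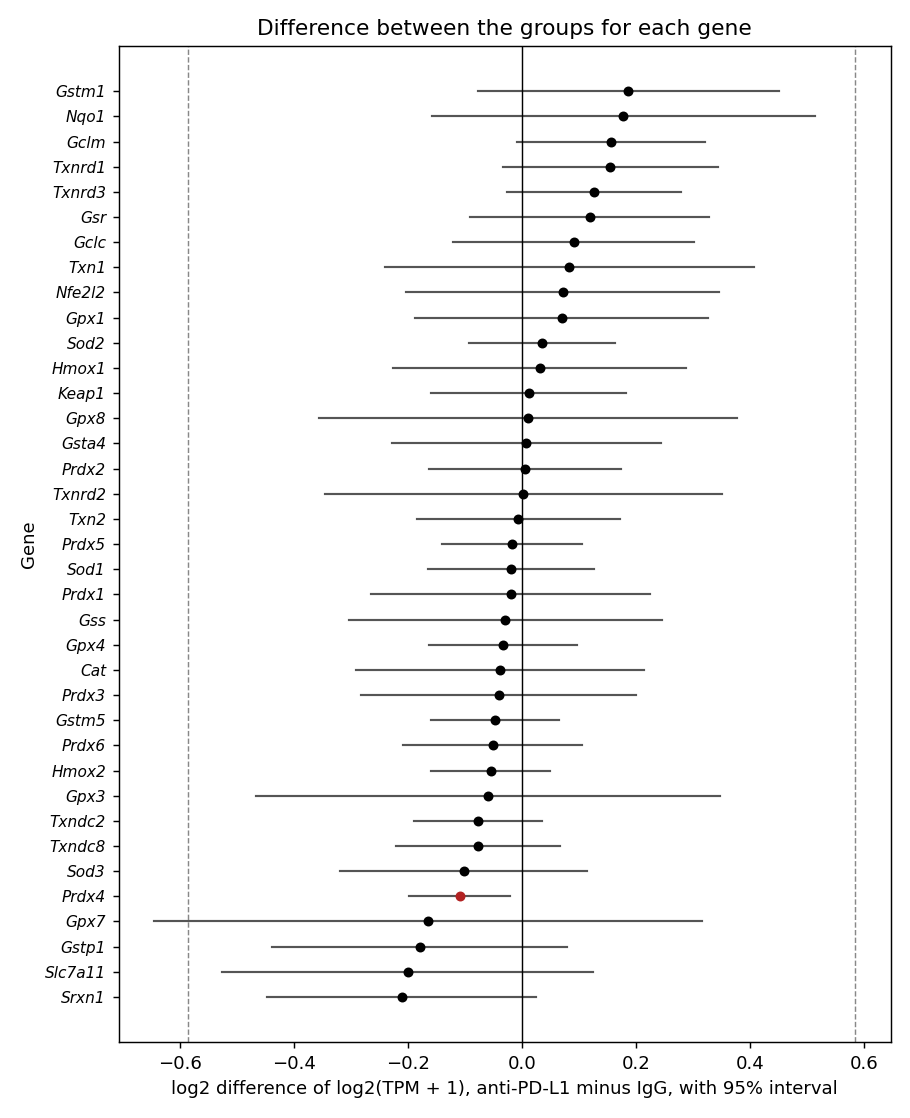
Differences in log2(TPM + 1), anti-PD-L1 minus IgG, with 95% intervals from limma, for the 37 genes in order of size; dashed lines mark a 1.5-fold change of TPM + 1, and red marks the gene whose groups did not overlap. All points lie between -0.21 and 0.19, and the interval of Prdx4 is the one that leaves out 0.

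The levels spanned more than the differences did. Member means over the 8 libraries ran from 1.39 TPM for Slc7a11 to 3149 TPM for Gstm5, with a median of 34.8 TPM, against 8.91 TPM for all tested genes. Of the members 2 were above 1000 TPM, 11 between 100 and 1000, 16 between 10 and 100 and 8 between 1 and 10. Summed over the members, the libraries held 8813 ± 218 TPM in the anti-PD-L1 group and 8978 ± 392 TPM in the IgG group (SD, n = 4 each), which is 0.89% of a library. Gstm5 and Gpx4 together made up 59.0% of that sum. The gap between the most abundant member of a class and the next differed between classes. Gpx4 was 50.7 times Gpx1 and Gstm5 was 8.53 times Gstm1, by the ratio of means over 8 libraries. Sod1 was 3.02 times Sod2, Gclm 2.03 times Gclc, Txndc2 1.63 times Txndc8 and Prdx4 1.5 times Prdx5. Each of these pairs stood in that order in 8 of 8 libraries.

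Summed by role, the groups overlapped in every class. The transferases were at 3632 ± 101 TPM in anti-PD-L1 libraries and 3691 ± 201 TPM in IgG libraries, and the glutathione peroxidases at 2133 ± 74.4 TPM in anti-PD-L1 libraries and 2183 ± 158 TPM in IgG libraries (SD, n = 4 each). Peroxiredoxins came to 609 ± 20.8 TPM in anti-PD-L1 libraries and 631 ± 17.5 TPM in IgG libraries, and superoxide dismutases with catalase to 578 ± 37.3 TPM in anti-PD-L1 libraries and 580.3 ± 18.3 TPM in IgG libraries. Thioredoxins with their reductases came to 394 ± 23.6 TPM in anti-PD-L1 libraries and 368 ± 12.5 TPM in IgG libraries, most of it Txnrd3. Glutathione synthesis and recycling was the smallest enzyme class, at 74.8 ± 3.37 TPM in anti-PD-L1 libraries and 69.2 ± 4.09 TPM in IgG libraries.

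**Figure D2:**
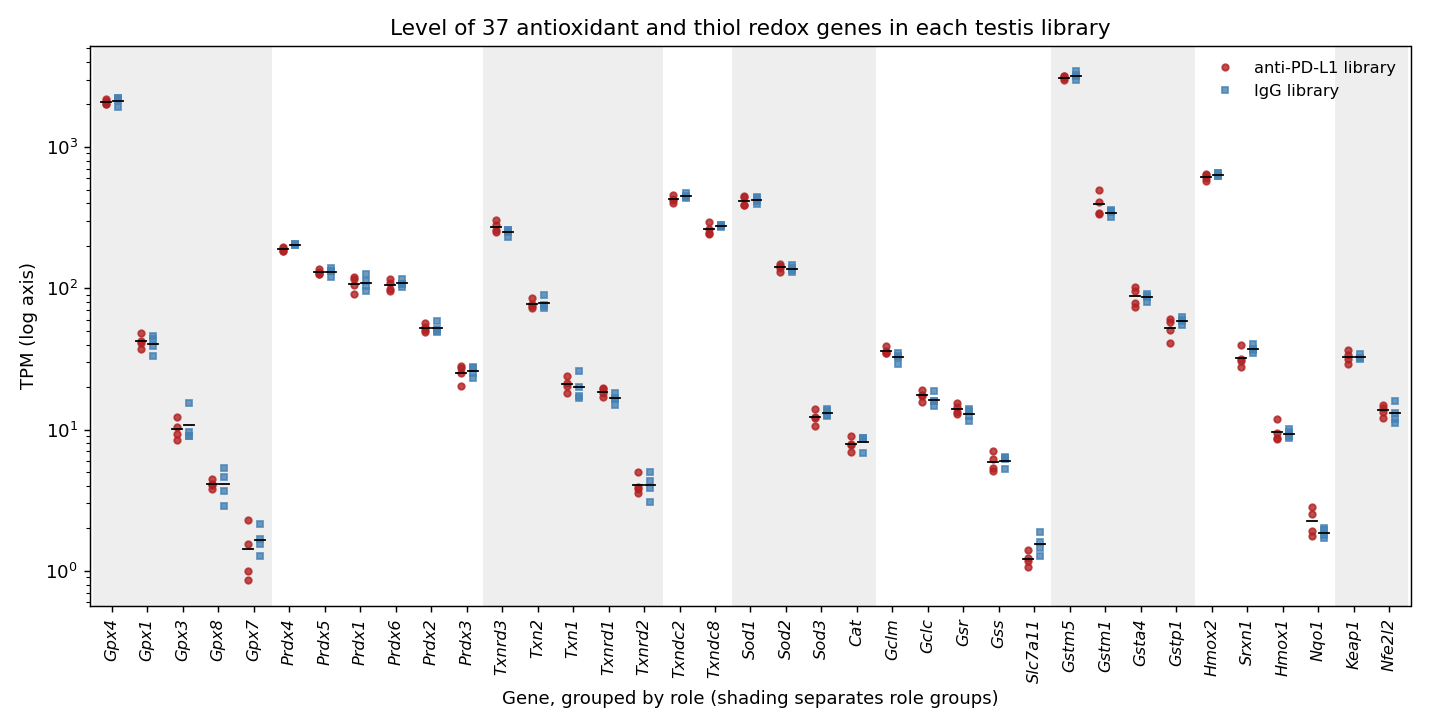
TPM on a log axis for the 37 genes, grouped by role and ordered by mean level within each group; red circles are the 4 anti-PD-L1 libraries, blue squares the 4 IgG libraries and black bars the group means. Levels run from near 1 TPM for Slc7a11 to 3149 TPM for Gstm5, and the libraries of both groups overlap for every gene but Prdx4.

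Among glutathione peroxidases, Gpx4 encodes the selenoenzyme that reduces lipid hydroperoxides within membranes (mm10 chromosome 10, 80047166 to 80056439, plus strand). Gpx4 was at 2014, 2099, 2175 and 2014 TPM in anti-PD-L1 libraries, against 2216, 2224, 2160 and 1904 TPM in IgG libraries. The lowest value was that of IgG replicate 4, and the groups overlapped. Its difference was -0.033 (SE 0.057, interval -0.16 to 0.097), with limma adjusted p = 0.999 and a two-sided exact permutation p = 0.657. Leaving out 1 library gave values from -0.085 (IgG replicate 4) to -0.010 (IgG replicate 2), and leaving out both libraries that stood apart gave -0.070. The longest Gpx4 transcript shares 61.7% of its 50-base words with the pseudogene Gpx4-ps2, so reads could have been split between them; that pseudogene was listed at 2.24 to 3.25 TPM. Gpx1, the cytosolic enzyme for hydrogen peroxide, averaged 42.4 ± 4.70 TPM in anti-PD-L1 libraries and 40.4 ± 5.51 TPM in IgG libraries (SD, n = 4 each).

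Gpx3, the secreted plasma form, was at 8.38, 12.3, 10.5 and 9.35 TPM in anti-PD-L1 libraries, against 15.3, 9.02, 9.69 and 9.0 TPM in IgG libraries. IgG replicate 1 alone was high. Its difference was -0.059, and 0.11 without that library; leaving out anti-PD-L1 replicate 1 gave 0.019 and replicate 2 gave -0.15. The same library had the highest sum of 7 adipocyte markers, 79.1 TPM, with 9.12 to 12.6 TPM in anti-PD-L1 libraries and 12.5 to 30.6 TPM in the other IgG libraries, 5 of the 7 averaging at least 1 TPM and none at 0 in all libraries; the part of this in the Gpx3 value was not tested. Markers of epididymis, where Gpx5 and Gpx3 are abundant, were at or near 0 in every library. Gpx8 and Gpx7, peroxidases of the endoplasmic reticulum, were the lowest of the 5 glutathione peroxidase members, at 4.12 and 1.54 TPM over 8 libraries. Gpx2 and Gpx5, outside the member list, did not exceed 0.07 TPM in any library.

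Peroxiredoxins held the only member whose groups did not overlap. Prdx4, the peroxiredoxin of the endoplasmic reticulum and of the secretory pathway (mm10 chromosome X, 155323918 to 155340754, minus strand), was at 196, 183, 191 and 185 TPM in anti-PD-L1 libraries, against 202, 206, 204 and 201 TPM in IgG libraries. All 4 anti-PD-L1 libraries were lower. The difference was -0.11 (SE 0.039, interval -0.20 to -0.020), or 0.927-fold. It did not pass in limma with Benjamini-Hochberg adjustment (adjusted p = 0.835, unadjusted p = 0.0219). A two-sided exact permutation test over 70 assignments gave p = 0.0286, the smallest it can give. Across 17 alternative settings and left-out libraries the difference stayed between -0.14 and -0.094, with limma adjusted p from 0.232 to 1. Without anti-PD-L1 replicate 2 or 4 or IgG replicate 2, and with no intensity trend, its unadjusted p was 0.0630, 0.0528, 0.0529 and 0.101. No 50-base word of its transcript occurs in another gene's transcripts, and no other gene shares its exons. The summed elongating spermatid markers given above were also lower on average in the anti-PD-L1 group, with overlapping libraries. Other germ cell lists did not run lower. Round spermatid markers summed to 785 to 906 TPM in anti-PD-L1 libraries and 711 to 850 TPM in IgG libraries. Spermatocyte markers summed to 1303 to 1468 TPM in anti-PD-L1 libraries and 1268 to 1388 TPM in IgG libraries. The sum of 6 Leydig cell markers, 6 of 6 present, was 2068 to 3377 TPM in anti-PD-L1 libraries and 1150 to 1493 TPM in IgG libraries. That separation came from Insl3: the other 5 markers summed to 349 to 572 TPM in anti-PD-L1 libraries and 398 to 498 TPM in IgG libraries, which overlapped. The part of any of these lists in the Prdx4 difference was not tested.

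Of the 6 peroxiredoxin members Prdx4 was also the most abundant, above Prdx5 in 8 of 8 libraries. Prdx6b, outside the member list, was at 194 to 214 TPM over the 8 libraries, a range that overlapped that of Prdx4. Prdx5, found in mitochondria, peroxisomes and cytosol, averaged 130 TPM over 8 libraries. Prdx1 and Prdx6, at 109 and 106 TPM, were in that order in 5 of 8 libraries and did not differ beyond their spread. Prdx1 is a cytosolic peroxiredoxin, and Prdx6 also carries a phospholipase activity. Prdx2, the form abundant in red cells, averaged 52.4 ± 3.30 TPM in anti-PD-L1 libraries and 52.2 ± 4.46 TPM in IgG libraries (SD, n = 4 each). The sum of 5 erythroid markers was 109, 50.5, 159 and 59.9 TPM in anti-PD-L1 libraries, against 209, 34.0, 34.4 and 38.5 TPM in IgG libraries. Prdx2 was highest in IgG replicate 1, at 58.8 TPM, but was 49.1 and 50.5 TPM in anti-PD-L1 replicates 1 and 3, which had the next highest sums. The part of these markers was not tested. Exons of Prdx2 overlap Rnaseh2a on the opposite strand over 5.8% of their bases, and Rnaseh2a averaged 925 TPM. Those of Prdx5 overlap Trmt112 over 19.1%, at 35.3 TPM; without the strand setting such reads cannot be told apart. Prdx3, of mitochondria, was lowest at 25.6 TPM. Differences of Prdx1, Prdx2, Prdx3, Prdx5 and Prdx6 lay between -0.051 and 0.0052, each with a limma adjusted p of 0.999.

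The thioredoxin reductase of male germ cells exceeded the housekeeping forms. Txnrd3 encodes thioredoxin-glutathione reductase, a selenoenzyme known for its abundance in testis (mm10 chromosome 6, 89643988 to 89675529, plus strand). Txnrd3 was at 249, 279.7, 303 and 260.2 TPM in anti-PD-L1 libraries, against 232, 257, 258 and 251 TPM in IgG libraries. Anti-PD-L1 replicates 2, 3 and 4 were above every IgG library, and replicate 1 was not. Its difference was 0.13 (SE 0.067, interval -0.026 to 0.28), with limma adjusted p = 0.999 and a two-sided exact permutation p = 0.143. Leaving out anti-PD-L1 replicate 3 gave 0.076, and leaving out replicate 1 gave 0.17, at an unadjusted p of 0.0326 and a limma adjusted p of 0.781. Txnrd1, the cytosolic reductase and an NRF2 target, was at 19.5, 18.1, 19.6 and 17.1 TPM in anti-PD-L1 libraries, against 14.9, 16.6, 16.7 and 18.3 TPM in IgG libraries, a difference of 0.16 (SE 0.083) with limma adjusted p = 0.999. The ratio of Txnrd3 to Txnrd1 was 14.7 ± 1.31 in anti-PD-L1 libraries and 15.1 ± 0.916 in IgG libraries (SD, n = 4 each), so the groups overlapped in it. Txnrd2, the mitochondrial reductase, was near 4 TPM in both groups. The thioredoxins Txn2, of mitochondria, and Txn1, of cytosol, differed by -0.0066 and 0.083.

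Txndc2 and Txndc8 encode sperm thioredoxins, which appear in spermatids and are found with the fibrous sheath and with the forming acrosome. Txndc2 (mm10 chromosome 17, 65637507 to 65642168, minus strand) was at 424, 458, 426 and 400.1 TPM in anti-PD-L1 libraries, against 444, 450.2, 471 and 435 TPM in IgG libraries. All but anti-PD-L1 replicate 2 were below the lowest IgG library. The difference was -0.077 (SE 0.049, interval -0.19 to 0.036), with limma adjusted p = 0.999 and a two-sided exact permutation p = 0.171. Leaving out 1 library gave values from -0.11 (anti-PD-L1 replicate 2) to -0.046 (anti-PD-L1 replicate 4). Txndc8 (chromosome 4, 57984027 to 58009124, minus strand) had the same arrangement: 242, 296, 247 and 265 TPM in anti-PD-L1 libraries, against 275, 279, 279 and 272 TPM in IgG libraries. Anti-PD-L1 replicate 2 was the highest of all 8 and the other anti-PD-L1 libraries were the lowest. Its difference was -0.077 (SE 0.063, interval -0.22 to 0.067), with limma adjusted p = 0.999 and a two-sided exact permutation p = 0.314. Leaving out anti-PD-L1 replicate 2 gave -0.14, at an unadjusted p of 0.0204 and a limma adjusted p of 1. Leaving out anti-PD-L1 replicate 1 gave -0.040, replicate 3 gave -0.0499, and both libraries that stood apart gave -0.047. The sum of both sperm thioredoxins was 690 ± 43.1 TPM in anti-PD-L1 libraries and 726 ± 18.2 TPM in IgG libraries (SD, n = 4 each).

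**Figure D3:**
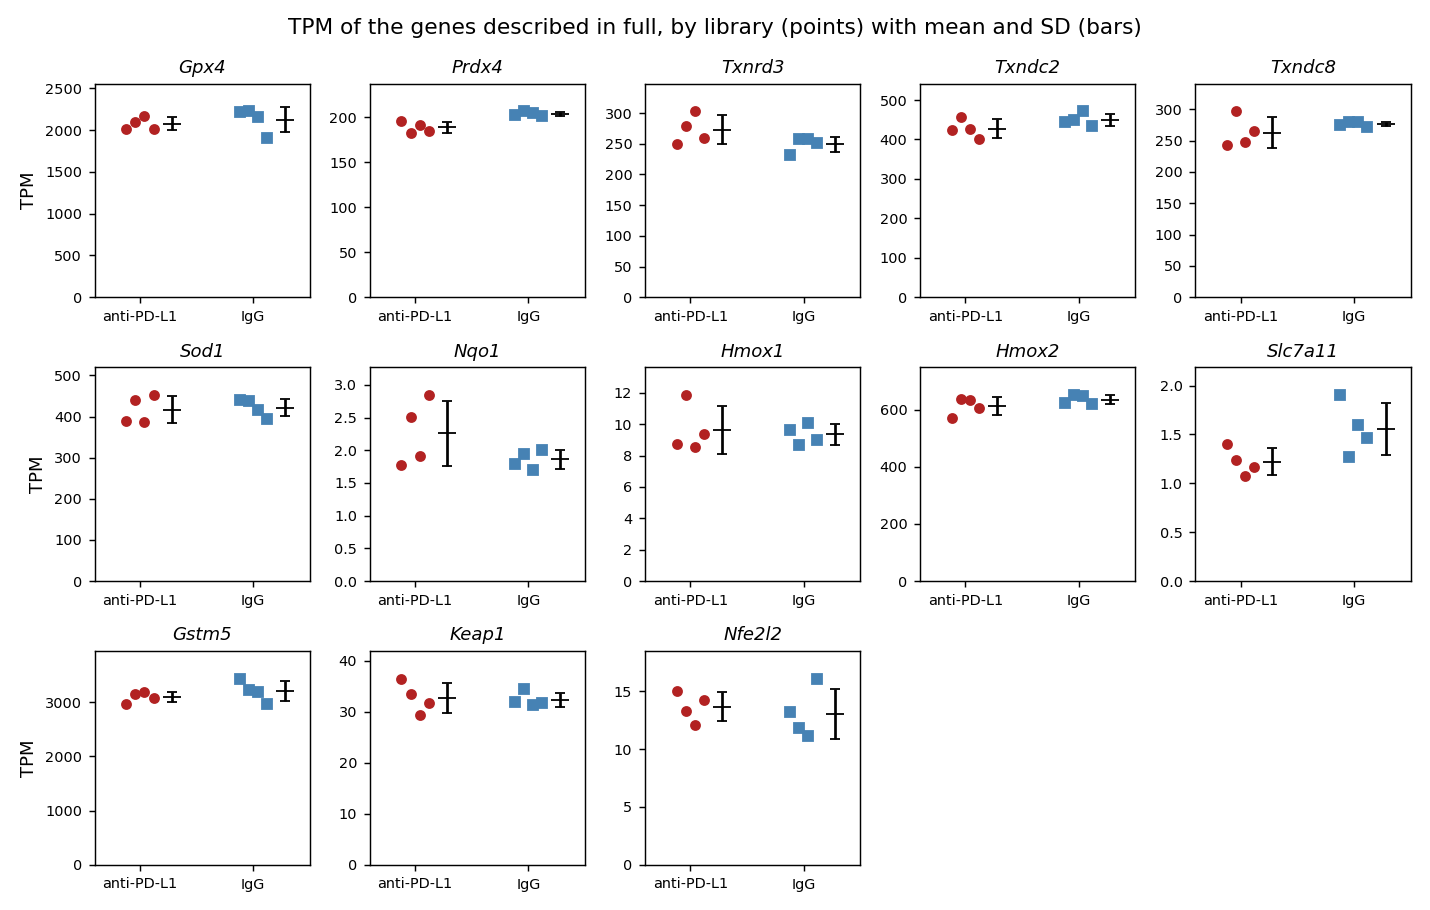
TPM of 13 genes in each library, on axes that start at 0; red circles are anti-PD-L1 libraries, blue squares IgG libraries, and the bar beside each group gives its mean and SD. Prdx4 is the gene whose 4 anti-PD-L1 libraries, at 183 to 196 TPM, all lie below the 4 IgG libraries, at 201 to 206 TPM.

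Superoxide is removed in the cytosol by the product of Sod1 (mm10 chromosome 16, 90220754 to 90226329, plus strand), which was at 390.3, 439.5, 386 and 452 TPM in anti-PD-L1 libraries, against 439.7, 437, 416 and 395 TPM in IgG libraries. High and low libraries stood in both groups. Its difference was -0.019 (SE 0.064, interval -0.17 to 0.13), with limma adjusted p = 0.999 and a two-sided exact permutation p = 0.8. Its sign turned without anti-PD-L1 replicate 1, anti-PD-L1 replicate 3 or IgG replicate 1, at 0.011, 0.016 and 0.00089, and the lowest value was -0.059, without anti-PD-L1 replicate 4. Of the 50-base words of Sod1, 23.1% occur in the pseudogene Gm8566, so its counting is uncertain. Sod2, the mitochondrial enzyme, averaged 141 ± 7.61 TPM in anti-PD-L1 libraries and 137 ± 6.89 TPM in IgG libraries (SD, n = 4 each). Sod3, the extracellular form, and Cat, the peroxisomal catalase, were lower at 12.7 and 8.07 TPM over 8 libraries, with differences of -0.10 and -0.039.

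Glutathione synthesis begins with the ligase whose catalytic subunit is Gclc and whose modifier subunit is Gclm. Gclm was at 39.0, 34.9, 36.0 and 34.9 TPM in anti-PD-L1 libraries, against 29.0, 32.6, 33.1 and 35.0 TPM in IgG libraries. IgG replicate 4 alone reached the anti-PD-L1 range. The difference was 0.16 (SE 0.072, interval -0.0079 to 0.32), with limma adjusted p = 0.981; without IgG replicate 4 it was 0.19, at an unadjusted p of 0.0301 and a limma adjusted p of 0.485. Gclc differed by 0.091 and the reductase Gsr by 0.12, while Gss, glutathione synthetase, differed by -0.029. Gclm exceeded Gclc in 8 of 8 libraries, by 2.08 ± 0.150 times in anti-PD-L1 libraries and 2.00 ± 0.195 times in IgG libraries (SD, n = 4 each). The deposited length was 1002 bases for Gclm, whose longest annotated transcript has 5589, and 3423 for Gclc, the same as its longest transcript. The part of the assigned length in this ratio was not tested. Slc7a11, the light chain of the cystine importer (mm10 chromosome 3, 49892526 to 50443614, minus strand), was at 1.40, 1.24, 1.07 and 1.17 TPM in anti-PD-L1 libraries, against 1.90, 1.27, 1.60 and 1.46 TPM in IgG libraries. IgG replicate 2 fell among the anti-PD-L1 libraries and the other IgG libraries were above them all. Its difference was -0.20 (SE 0.14, interval -0.53 to 0.12), with limma adjusted p = 0.999 and a two-sided exact permutation p = 0.0571. With a pseudocount of 0.1 it was -0.32.

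Glutathione transferases gave the most abundant member. Gstm5, a mu class transferase known from testis and brain (mm10 chromosome 3, 107895821 to 107898686, plus strand), was at 2962, 3154, 3181 and 3087 TPM in anti-PD-L1 libraries, against 3427, 3227, 3183 and 2972 TPM in IgG libraries. Both libraries that stood apart gave the lowest value of their group. Its difference was -0.047 (SE 0.049, interval -0.16 to 0.065), with limma adjusted p = 0.999 and a two-sided exact permutation p = 0.314. Leaving out IgG replicate 4 gave -0.082, IgG replicate 1 gave -0.014 and anti-PD-L1 replicate 1 gave -0.026. Gstm1 had the largest difference upward, 0.19 (SE 0.12), from 408, 339.7, 337 and 496 TPM in anti-PD-L1 libraries against 349.96, 356, 345 and 321 TPM in IgG libraries. Anti-PD-L1 replicates 1 and 4 were above every IgG library and replicates 2 and 3 were not, and limma adjusted p was 0.999. Gstm1 shares 23.1% of its 50-base words with other genes, most with Gstm2-ps1. Gstm2, outside the member list, was likewise highest in anti-PD-L1 replicates 1 and 4, at 298 and 319 TPM, with 236 to 256 TPM in the other 6 libraries. For Gstm3, Gstm4, Gstm6 and Gstm7, anti-PD-L1 replicate 1 was at 112, 8.66, 66.5 and 84.3 TPM, each below the highest IgG library. Anti-PD-L1 replicate 4 was the highest library for Gstm3 and Gstm7 but not for Gstm4 and Gstm6. Gstp1, of the pi class, shares 62.3% of its words with Gstp2, which makes its value uncertain, and Gstp2 was listed at 0.25 to 5.14 TPM. Gstp1 averaged 52.4 ± 8.57 TPM in anti-PD-L1 libraries and 58.9 ± 3.35 TPM in IgG libraries (SD, n = 4 each). Its difference was -0.18 (SE 0.11), with limma adjusted p = 0.999. Gsta4, which conjugates aldehydes from lipid peroxidation, differed by 0.0079.

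Heme oxygenase was represented mainly by the constitutive form. Hmox2 (mm10 chromosome 16, 4726361 to 4766742, plus strand) was at 571, 639, 634 and 607 TPM in anti-PD-L1 libraries, against 624, 650.4, 649.6 and 618 TPM in IgG libraries. The lowest pair of values was in anti-PD-L1 libraries, and the ranges overlapped. The difference was -0.054 (SE 0.046, interval -0.16 to 0.050), with limma adjusted p = 0.999 and a two-sided exact permutation p = 0.257. Leaving out anti-PD-L1 replicate 1 gave -0.021, and leaving out both libraries that stood apart gave -0.034. Quantile normalization gave -0.011 and median ratio rescaling -0.082. Of its exon bases 40.2% overlap Cdip1 on the opposite strand, which averaged 24.4 TPM, and the strand setting of the counting is not given in the sources used here. Hmox1, the inducible form and an NRF2 target (chromosome 8, 75093621 to 75100589, plus strand), was at 8.75, 11.8, 8.54 and 9.39 TPM in anti-PD-L1 libraries, against 9.64, 8.66, 10.1 and 8.99 TPM in IgG libraries. Anti-PD-L1 replicate 2 alone was high. The difference was 0.031 (SE 0.11, interval -0.23 to 0.29), with limma adjusted p = 0.999 and a two-sided exact permutation p = 0.857, while its sign turned without that library (-0.063), without IgG replicate 2 (-0.00083) and after quantile normalization (-0.0039). The highest value with 1 library left out was 0.080, with anti-PD-L1 replicate 3 dropped, while dropping both libraries that stood apart gave 0.053. Hmox2 exceeded Hmox1 by 54.0 to 75.1 times in single libraries.

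Nqo1, the quinone reductase widely used as a readout of NRF2 activity, was low in this tissue (mm10 chromosome 8, 107388225 to 107403206, minus strand). It was at 1.78, 2.51, 1.91 and 2.84 TPM in anti-PD-L1 libraries, against 1.79, 1.95, 1.70 and 2.00 TPM in IgG libraries. Anti-PD-L1 replicates 2 and 4 were above all others, and replicates 1 and 3 lay within the IgG range. Its difference was 0.18 (SE 0.15, interval -0.16 to 0.51), with limma adjusted p = 0.999 and a two-sided exact permutation p = 0.286. Dropping anti-PD-L1 replicate 4 gave 0.094, and dropping both libraries that stood apart gave 0.27. Srxn1, sulfiredoxin, which repairs over-oxidised peroxiredoxins and is another NRF2 target, had the largest difference downward. It was at 31.6, 39.5, 30.5 and 27.7 TPM in anti-PD-L1 libraries, against 35.0, 40.1, 37.4 and 36.7 TPM in IgG libraries. All but anti-PD-L1 replicate 2 were below the lowest IgG library. The difference was -0.21 (SE 0.10, interval -0.45 to 0.025), with limma adjusted p = 0.982, and without anti-PD-L1 replicate 2 it was -0.31, at an unadjusted p of 0.0041 and a limma adjusted p of 1. Dropping anti-PD-L1 replicate 4 gave -0.14, at an unadjusted p of 0.193, and dropping IgG replicate 2 gave -0.18, at an unadjusted p of 0.167.

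The regulators themselves were close between the groups. Keap1, the adaptor that hands NRF2 to ubiquitination (mm10 chromosome 9, 21229730 to 21239361, minus strand), was at 36.4, 33.6, 29.3 and 31.8 TPM in anti-PD-L1 libraries, against 31.9, 34.5, 31.4 and 31.9 TPM in IgG libraries. Anti-PD-L1 libraries held both the highest and the lowest value. The difference was 0.012 (SE 0.075, interval -0.16 to 0.18), with limma adjusted p = 0.999 and a two-sided exact permutation p = 0.971, and its sign turned under 7 of 17 alternatives, with -0.015 after median ratio rescaling and -0.047 without both libraries that stood apart among them. Nfe2l2, the gene of NRF2 (chromosome 2, 75675513 to 75704641, minus strand), was at 15.0, 13.3, 12.1 and 14.3 TPM in anti-PD-L1 libraries, against 13.2, 11.8, 11.1 and 16.0 TPM in IgG libraries. IgG replicate 4 was the highest of all 8. The difference was 0.072 (SE 0.12, interval -0.20 to 0.35), with limma adjusted p = 0.999 and a two-sided exact permutation p = 0.571, while leaving out IgG replicate 4 gave 0.17, IgG replicate 3 gave 0.0041 and both libraries that stood apart gave 0.13. The transcript level of Nfe2l2 does not show the activity of the protein, which is set largely by its degradation.

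Members with the antioxidant response core in their promoter window did not move one way. Of the 8, Gclm, Txnrd1 and Nfe2l2 had differences above 0 and Prdx1, Srxn1, Sod1, Gstm5 and Txndc2 below 0, with a range from -0.21 to 0.16 and a median of -0.020. The 23 other members with a promoter ranged from -0.20 to 0.19 with a median of -0.017. Srxn1 and Gclm, whose windows are printed above, stood at the opposite ends of the range of the 8.

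Genes of the surrounding pathways were read from lists written out for this purpose, beside the background shares of 3% higher and 2.22% lower at an unadjusted p under 0.05. Of 25 tested genes for other glutathione enzymes, 0 were under that p, and Gsto2, an omega class transferase, had the smallest, with 210 ± 8.03 TPM in anti-PD-L1 libraries and 228 ± 13.7 TPM in IgG libraries (SD, n = 4 each). Of 24 thiol redox partners 1 was higher, Pdia3, a disulfide isomerase of the endoplasmic reticulum, by 0.12 (SE 0.052, limma adjusted p = 0.934). Of 18 NRF2 partners and targets 0 were under it, the smallest p being that of Nfe2l1, a relative of NRF2. Of 14 genes of selenoprotein synthesis or selenoproteins 1 was higher and 1 lower. Sephs2 encodes selenophosphate synthetase, which makes the selenium donor for selenocysteine, and averaged 135 ± 4.97 TPM in anti-PD-L1 libraries and 117 ± 4.03 TPM in IgG libraries (SD, n = 4 each) with no overlap. Its difference was 0.21 (SE 0.047, interval 0.10 to 0.31), with limma adjusted p = 0.632. Selenok, a selenoprotein of the endoplasmic reticulum, differed by -0.24 (SE 0.097, limma adjusted p = 0.918), and by -0.15 without IgG replicate 1.

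Of 10 genes that supply NADPH 1 was higher, Pgls, a lactonase of the pentose phosphate pathway. It averaged 82.6 ± 11.3 TPM in anti-PD-L1 libraries and 63.7 ± 2.69 TPM in IgG libraries (SD, n = 4 each) with no overlap, a difference of 0.36 (SE 0.093, limma adjusted p = 0.657). Of 8 genes for sources of superoxide only 3 passed the filter, and Rac2, a GTPase of the phagocyte NADPH oxidase, was lower without overlap. It averaged 2.23 ± 0.824 TPM in anti-PD-L1 libraries and 3.97 ± 0.739 TPM in IgG libraries (SD, n = 4 each), a difference of -0.65 (SE 0.20, limma adjusted p = 0.706), or -0.86 with a pseudocount of 0.1. The sum of 7 macrophage markers, none at 0 in all libraries, was 57.5 to 71.7 TPM in anti-PD-L1 libraries and 50.5 to 61.3 TPM in IgG libraries. Adjusted over all tested genes, 0 genes of these lists passed in limma, and 5 were under an unadjusted p of 0.05, where 5.23% of all tested genes were. The groups did not overlap for Sephs2, Pgls and Rac2, where 1.76% of all tested genes lay wholly above and 1.23% wholly below.

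The highest and lowest values of the members were spread over all 8 libraries. The highest value of a member was in anti-PD-L1 replicate 4 for 9 of the 37 and in IgG replicates 1 and 2 for 7 each. The lowest value was in anti-PD-L1 replicate 3 for 10 and in anti-PD-L1 replicate 1 for 8. On the log2(TPM + 1) scale, the farthest single value from its gene's mean was 0.53, for Gpx3 in IgG replicate 1. IgG replicate 4 held the lowest value of all 8 libraries for 5 members, Gpx1, Gpx4, Prdx5, Cat and Gstm1. It held the highest for 2, Nfe2l2 and Txnrd2. That library also had the lowest sum of elongating spermatid markers in its group. The part of these markers in the values of the members was not tested.

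**Figure D4:**
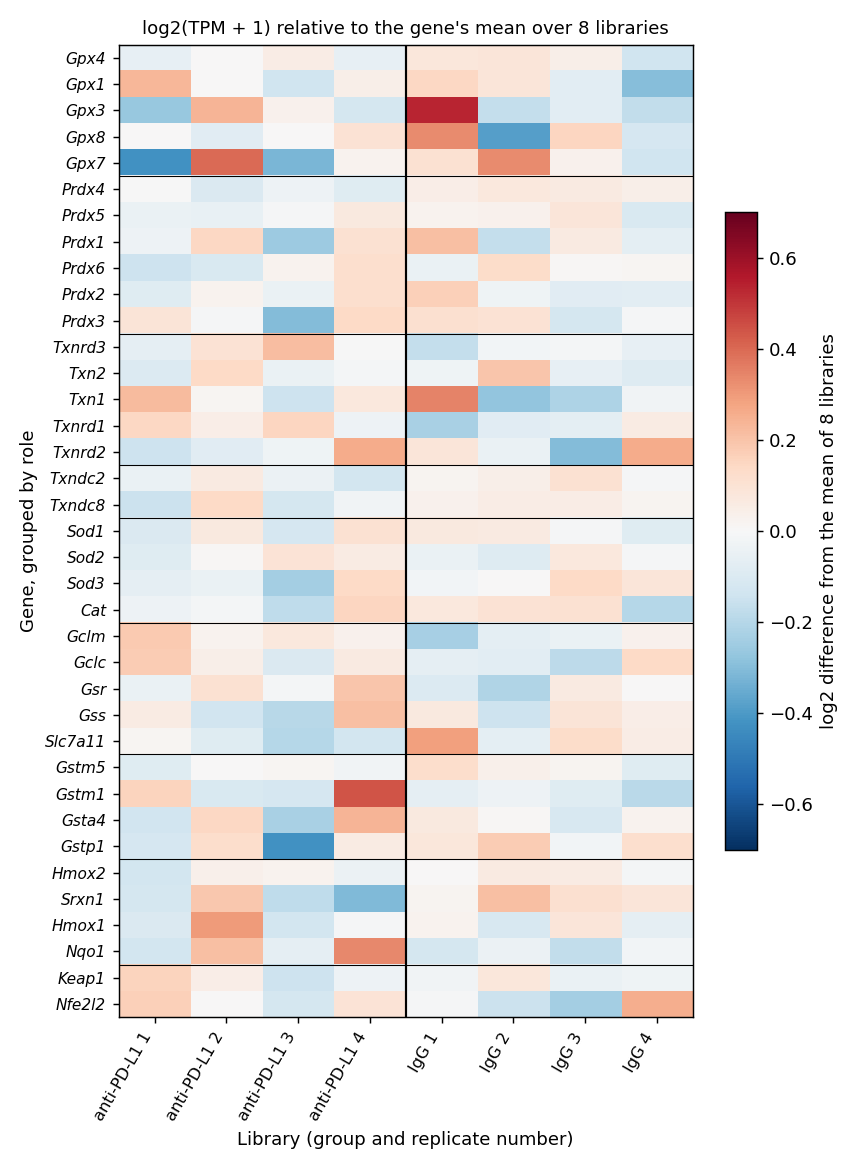
log2(TPM + 1) of each gene in each library relative to its mean over the 8 libraries, with red above and blue below that mean; anti-PD-L1 libraries are left of the line and IgG libraries right of it. The strongest cell is Gpx3 in IgG replicate 1, at 0.53, and Prdx4 is above its mean in all 4 IgG libraries.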

How the data were processed

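The authors deposited 1 gene table in TPM, per the file headers, which also holds group means and lengths that were not used in tests. Each of the 8 library columns summed to 1000000. Per the submitters' processing notes, the tools were HISAT2, StringTie, RSEM and CASAVA 1.8 and the build mm10; what each did, the annotation release and the strand setting are not given in these sources. Groups and replicate numbers came from the sample titles.

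The scale was log2(TPM + 1), so the pseudocount was 1. Genes averaging 1 TPM or more were fitted on group alone in R 4.3.3 with limma 3.58.1 (intensity trend on); p-values were adjusted over all 20343 tested genes by the Benjamini-Hochberg method at 0.05. The code was tested on simulated data. For single genes, all 70 assignments of libraries were enumerated (exact permutation, two-sided), and no p below 0.0286 can result. TPM keep no depth, so no intervals or floors from counts are given. Alternatives were quantile normalization, median ratio rescaling, array quality weights, a replicate block, the trend switched off, 0.1 as pseudocount, filtering at 5 TPM or not at all, and leaving out each library or both that stand apart.

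Described in full were members with an unadjusted p under 0.05 or without overlap, the 5 most abundant, and 10 chosen for their roles; each surrounding list gave its genes under that p, or its smallest. Values of other members were added where their differences were the largest, where their family needed them or where 1 library decided them. The members and lists were chosen with earlier results of these data known. Coordinates are from GENCODE M21 for GRCm38, which is mm10, and promoters from RefSeq. Protein sequences were not used here.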

Additional observations from a re-analysis of the deposited data

Results flagged for a closer look

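Over the 37 members and 7 genes of the surrounding lists, 88 groups of 4 libraries were looked at for a library far from the other libraries of its group, and 3 had one (3.41%), where chance gives about 1 in 20. Gpx3 was at 15.3 TPM in IgG replicate 1, with 9.0 to 9.69 TPM in the other IgG libraries. Cat was at 6.86 TPM in IgG replicate 4, with 8.53 to 8.72 TPM in the others of its group. Nfe2l1 was at 36.2 TPM in IgG replicate 4, with 43.9 to 45.0 TPM in the others.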

How the results depend on the processing

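Under all 17 alternatives 0 of 37 members passed the adjusted threshold, and the median difference of the members, -0.017, stayed between -0.045 and 0.014. The count of members with an unadjusted p under 0.05, 1 as reported, was 2 without the filter, 3 after quantile normalization, 3 with the replicate block and 0 with no intensity trend, and 0 to 3 when a library was left out (3 without IgG replicate 4, 2 without anti-PD-L1 replicate 1 or 2, and 0 without IgG replicate 2 or anti-PD-L1 replicate 4). Among all tested genes 1063 of 20343 were under that p as reported, and 1512 of 37295 without the filter. The number was 1120 after quantile normalization, 1065 with the block and 992 with no trend. It was 1861 without IgG replicate 4, and 1224 and 893 without anti-PD-L1 replicates 1 and 2. Without IgG replicate 2 it was 774, and without anti-PD-L1 replicate 4 it was 908. The block added Txnrd3 and Srxn1 to Prdx4. Same-numbered libraries had correlated deviations of -0.115, 0.1, 0.09 and -0.198, so the numbers were not taken to pair them. The highest correlation of any pair across the groups was 0.359, between anti-PD-L1 replicate 1 and IgG replicate 4, the libraries that stand apart. Over all genes the count past the adjusted threshold, 0 as reported, was 1 with a pseudocount of 0.1, 5 with array quality weights, 8 without both libraries that stand apart, and 0 to 15 when a library was left out (15 without IgG replicate 4, 3 without anti-PD-L1 replicate 4, while dropping IgG replicate 2 or anti-PD-L1 replicate 1 gave 1). Of the surrounding lists, 5 genes under the unadjusted p became 3 after median ratio rescaling, 8 with array quality weights, 3 with no intensity trend, 8 without both libraries and 3 to 10 when a library was left out (10 without IgG replicate 4 and 3 without IgG replicate 3). The count over all 20343 tested genes moved too, from 1063 to 1010 after rescaling, 2155 with weights, 992 with no trend and 2009 without both libraries. It was 1861 without IgG replicate 4 and 803 without IgG replicate 3. Signs turned for differences near 0. For Keap1 these were -0.019 after quantile normalization, -0.015 after rescaling, -0.0089 with weights and -0.047 without both libraries, and -0.039 to 0.062 when a library was left out. For Hmox1 it was -0.0039 after quantile normalization, and -0.063 to 0.080 with a library left out. For Sod1 it was -0.059 to 0.016 with a library left out. For Gpx3 it was 0.060 with weights, and -0.15 to 0.11 with a library left out. The causes were not tested. Read depth is unknown, which leaves the precision of members near 1 TPM, such as Slc7a11, Gpx7 and Nqo1, unknown.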
